A study of Bos taurus with 20 samples.

Results

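The plasma cell genes described here are 9 genes of antibody-secreting cells, measured in the endometrium of cows: JCHAIN (named IGJ on the array), MZB1, POU2AF1, XBP1, PRDM1, PIM2, IRF4, DERL3 and FKBP11. They were chosen by name, among 19420 genes that entered the test. For 7 of them the array design used the same symbol, JCHAIN was found under its older name, and MZB1 was reached through the accession of its probe, which the design calls PACAP, an older name. They have 17 probes of 60 bases, of which 16 passed the filter on dim signal.

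Each of 10 cows was biopsied 2 times, in the horn next to the ovary that carried the corpus luteum and, as the series states, at day 7 from oestrus. The late biopsies were taken between 343 and 436 days after parturition (388.9 ± 27.5 days, SD, n = 10), and the early ones between 42 and 86 days (60.1 ± 13.3 days, SD, n = 10). All animals were female, and the labels give no age, breed or treatment. The late biopsy was the second of each cow, so that period, age and order of sampling cannot be told apart. A biopsy is bulk tissue, in which fewer cells of a type and less RNA per cell cannot be told apart. Levels are the log2 processed signal less the 75th percentile of the same array, and they are compared within a probe only.

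Plasma cells are the antibody-secreting end stage of the B cell lineage. In human and mouse, IRF4 and PRDM1 switch the B cell programme off, and XBP1 enlarges the endoplasmic reticulum in which antibody chains are folded. DERL3, FKBP11 and MZB1 act in that compartment. In mucosal tissues, including the uterus, plasma cells make polymeric IgA and IgM that are held together by the J chain, the product of JCHAIN, and are carried through the epithelium by the polymeric immunoglobulin receptor.

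The share of spots well above background lay between 71.8% and 80.2% over the arrays. Over the whole series limma called 256 genes of 19420 between late and early at an adjusted p under 0.05, which is 1.32% (0.541% higher and 0.778% lower in late). Endometrial markers were present: all 10 epithelial and all 8 stromal markers with a probe, among them EPCAM, KRT8, PGR and HAND2, were well above background on all 20 arrays. The brightest probe of each plasma cell gene was above background on all 20 arrays, except that of POU2AF1 (9 late and 9 early arrays). The early array of cow 4 or of cow 9 held the highest or lowest early level of 7 of the 9 genes, and results are therefore also given without these 2 cows.

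The probes that carry the results are shown first, with their positions on HGSC Btau_3.1, the build that the file headers name. JCHAIN has 2 probes on the minus strand of chromosome 6 that share no base. Their first 30 bases are shown to make clear that different stretches of the transcript varied together over the arrays.
JCHAIN, chr6:88905404-88905463, first 30 bases: tttggctttgccctagagagcctgagcttt
JCHAIN, chr6:88905085-88905144, first 30 bases: atcacctctgttgtaactaaatctaacaaa
The levels of both probes correlated at r = 0.999 over 20 arrays. Exon and UTR positions were not assigned, because no annotation of this build was used here.

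PRDM1 and XBP1 have 4 and 3 probes, and those printed next are the ones that departed most from the brightest probe of their gene.
PRDM1, chr9:45921093-45921152, minus strand: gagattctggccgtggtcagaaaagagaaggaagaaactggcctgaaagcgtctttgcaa
PRDM1, chr9:45920949-45921008, minus strand: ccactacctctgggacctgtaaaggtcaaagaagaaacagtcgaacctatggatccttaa
XBP1, chr17:71586664-71586723, minus strand: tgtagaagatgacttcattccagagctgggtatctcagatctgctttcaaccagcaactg
No probe was taken here to tell the spliced from the unspliced form of XBP1. The probe of DERL3 and the dimmer probe of FKBP11 are shown because their 60 bases lie over 464 and 719 bases of the genome, so that each crosses a gap, of 404 and 659 bases, and reads joined sequence.
DERL3, chr17:74545852-74546315, minus strand: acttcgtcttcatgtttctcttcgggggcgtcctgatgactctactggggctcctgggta
FKBP11, chr5:33920345-33921063, plus strand: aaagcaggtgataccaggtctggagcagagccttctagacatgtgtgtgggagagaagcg
The remaining genes lie on chromosome 7 (MZB1, 49972173 to 49972232), chromosome 15 (POU2AF1, 19854269 to 19854328), chromosome X (PIM2, 55493378 to 55493437) and chromosome 23 (IRF4, 53259324 to 53261342 for the brighter probe, which also crosses a gap, of 1959 bases).

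The first comparison asks whether the plasma cell genes differed between the late and the early biopsy of the same cow. None of the 9 was called, against 1.32% of all genes (0.541% higher and 0.778% lower late). In late biopsies 5 were higher and 4 lower, with changes between -0.58 (POU2AF1) and 0.26 (PIM2) on the log2 scale. Their median change was 0.05, beside 0.02 over all genes tested, and the median size of change without sign was 0.16 both for the 9 genes and for all genes. One gene, PIM2, had an unadjusted p under 0.05, as did 22.6% of all genes. The limma adjusted p, taken over all genes, lay between 0.206 (PIM2) and 0.748 (IRF4). The arrays lay on 5 slides, and only slide 3 held both periods (2 late arrays, cows 1 and 2, and 2 early, cows 9 and 10). On that slide alone, where the late and early arrays come from different cows, none of the 9 was called and their median change was -0.26. With slide as a fixed block none was called either, and no gene of the whole table was (limma, 366 genes at an unadjusted p under 0.05). By probe, 0 of the 16 that passed the filter were called, against 1.13% of 33759 probes. At an unadjusted p under 0.05 stood 4 of the 16, all of PRDM1 or PIM2, against 23.8% of all probes.

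**Figure D1:**
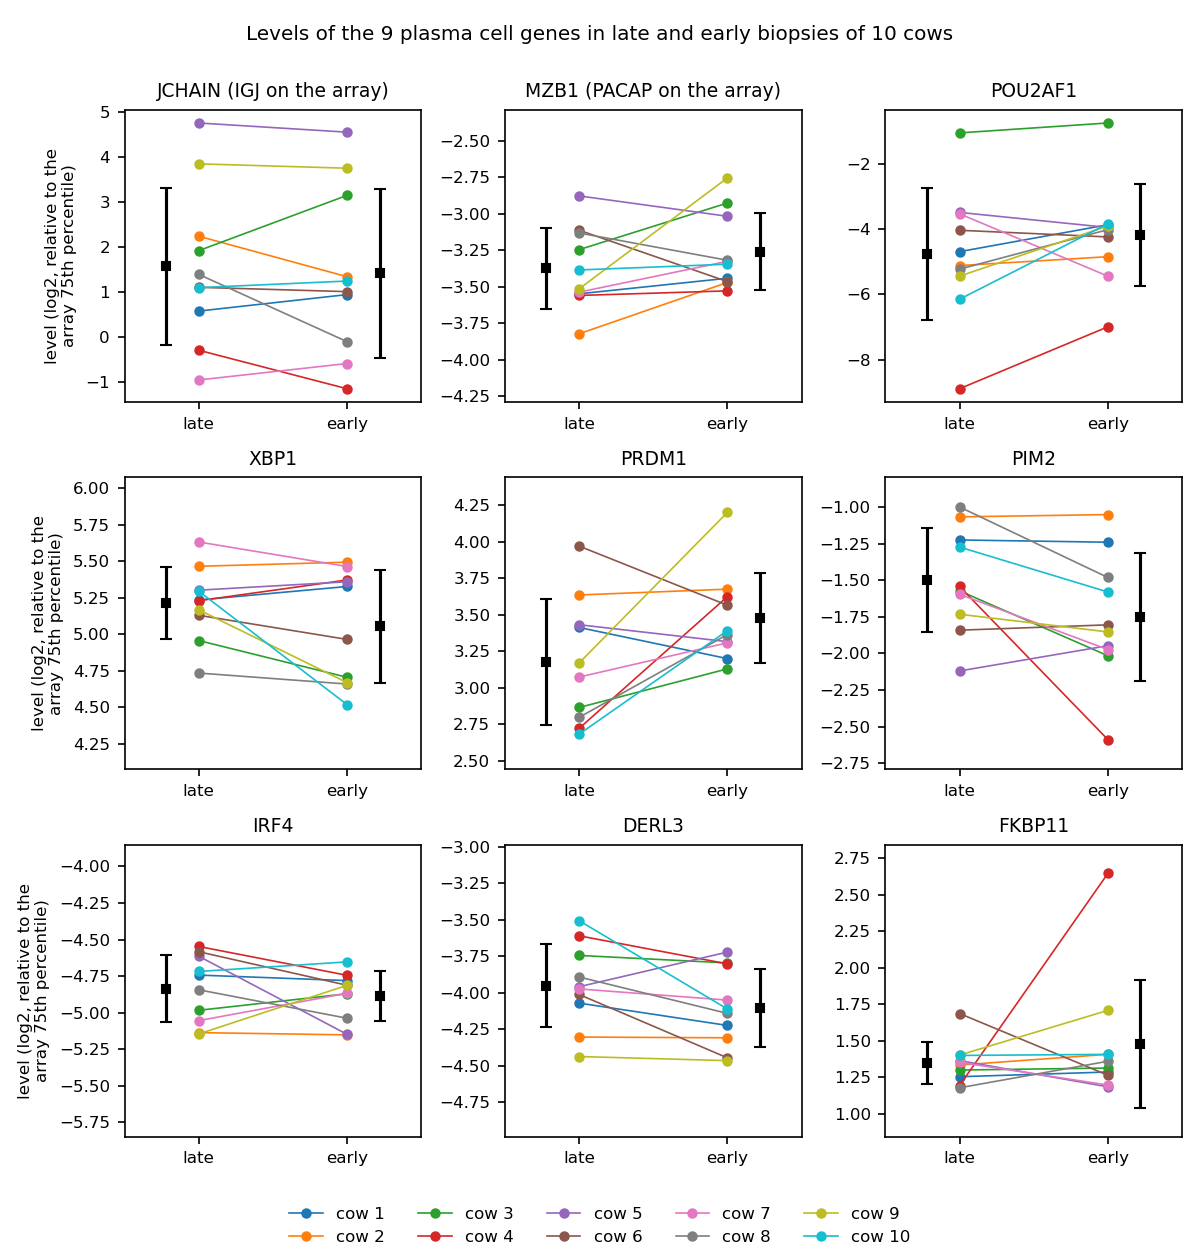
Level of each of the 9 plasma cell genes (log2, relative to the array's 75th percentile) in the late and the early biopsy of 10 cows; a coloured line joins the samples of a cow, and black squares with bars are the mean ± SD of each period (n = 10). JCHAIN and POU2AF1 are spread over several log2 units in both periods, while the others stay within about 2 units; the vertical axes differ between panels and each spans at least 2 units.

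JCHAIN, the chain that joins antibody units into polymers, had a lowest, median and highest level of -0.95, 1.26 and 4.76 in late biopsies, against -1.14, 1.13 and 4.56 in early ones. The periods overlapped almost completely, whereas cows differed widely: cow 5 was the highest in both periods, and the lowest was cow 7 in late and cow 4 in early biopsies. The highest cow stood 52.3-fold above the lowest in late biopsies and 51.9-fold in early ones. The mean late level was 1.58 ± 1.74, against 1.42 ± 1.87 early (SD, n = 10), a change of 0.15 ± 0.22 (SE; 95% interval -0.34 to 0.64; adjusted p = 0.704), higher in 6 of 10 cows. Leaving out 1 cow gave changes between 0.01 (without cow 8) and 0.31 (without cow 3). The second probe gave 0.21 ± 0.22 (SE; adjusted p = 0.576).

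POU2AF1, a coactivator of B cells that binds octamer factors at immunoglobulin promoters, was the other gene of wide spread. Its lowest, median and highest levels were -8.88, -4.90 and -1.06 late, against -6.99, -3.99 and -0.76 early. Cow 3 was the highest and cow 4 the lowest in both periods, and in cow 4 the probe was not well above background on either array. Over the 9 arrays of each period above background the range was 33.9-fold late and 25.7-fold early. The change was -0.58 ± 0.36 (SE; 95% interval -1.36 to 0.20; adjusted p = 0.349), lower late in 7 of 10 cows.

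The SD over all 20 arrays was 1.76 for JCHAIN and 1.79 for POU2AF1, larger than in 99.5% of genes for both. The median over all genes was 0.34. That of POU2AF1 includes both arrays of cow 4, on which its probe was not well above background. The SDs of the other 7 genes lay between 0.20 (IRF4) and 0.41 (PIM2) and ranked between the 16.6th and the 60.5th percentile.

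MZB1, an endoplasmic reticulum cochaperone of marginal zone B cells and plasma cells, ranged from -3.82 to -2.88 (median -3.45) late and from -3.53 to -2.75 (median -3.33) early. In 4 late biopsies it lay below every early one, while the other 6 were inside the early range. The change was -0.11 ± 0.10 (SE; adjusted p = 0.523), lower in 7 of 10 cows.

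Among the transcription factors, XBP1 drives the secretory expansion of the endoplasmic reticulum. It ranged from 4.74 to 5.63 (median 5.23) late and from 4.52 to 5.49 (median 5.15) early, with a change of 0.16 ± 0.10 (SE; adjusted p = 0.330). All late values but 1, that of cow 7, lay inside the early range, and 6 of 10 cows were higher late. The overlapping second probe gave 0.14 ± 0.09 (SE), while the probe whose sequence is printed above gave -0.04 ± 0.10 (SE), with 3 of 10 cows higher late. The probes of XBP1 therefore disagree on the sign of a change that none of them called.

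PRDM1, a repressor that ends the B cell programme and that is also made outside the lymphoid lineage, ranged from 2.68 to 3.97 (median 3.12) late and from 3.13 to 4.20 (median 3.38) early. In 5 late biopsies it lay below every early one, and the other 5 overlapped the early range. The change was -0.30 ± 0.15 (SE; 95% interval -0.62 to 0.02; adjusted p = 0.246), and 7 of 10 cows were lower late. The other 3 probes gave -0.35 ± 0.14, -0.56 ± 0.20 and -0.64 ± 0.21 (SE), with adjusted p of 0.159, 0.132 and 0.110 over all probes. Of these, both printed above were lower late in 9 of 10 cows, and all 4 probes had the same sign without being called.

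IRF4, a factor of both lymphocyte activation and plasma cell fate, was dim. Its brighter probe ranged from -5.15 to -4.55 (median -4.79) late and from -5.15 to -4.65 (median -4.84) early. Its change was 0.05 ± 0.09 (SE; adjusted p = 0.748), and the other probe was above background on 0 late arrays and 1 early array.

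PIM2, a survival kinase of plasma cells, ranged from -2.12 to -0.997 (median -1.56) late and from -2.59 to -1.05 (median -1.83) early. It was higher late in 7 of 10 cows, by 0.26 ± 0.11 (SE; 95% interval 0.01 to 0.50; unadjusted p = 0.0423, adjusted p = 0.206). Cow 4 had the lowest early level of PIM2 and the largest difference, 1.05. With slide as a fixed block the change of PIM2 had the reverse sign, at -1.07 ± 0.40 (SE).

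DERL3, a component of the pathway that removes misfolded proteins from the endoplasmic reticulum, ranged from -4.44 to -3.51 (median -3.97) late and from -4.46 to -3.72 (median -4.13) early. It was higher late in 9 of 10 cows, the most even direction among the 9 genes, but by only 0.16 ± 0.08 (SE; 95% interval -0.03 to 0.34; adjusted p = 0.289). A further probe that the files describe by its likeness to human DERL3 gave 0.16 ± 0.11 (SE), higher in 6 of 10 cows, and correlated with the DERL3 probe at r = 0.782.

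FKBP11, a prolyl isomerase of the secretory pathway, ranged from 1.18 to 1.69 (median 1.34) late and from 1.18 to 2.64 (median 1.34) early. The high early value was that of cow 4, and the next was 1.71 in cow 9. The change was -0.13 ± 0.15 (SE; adjusted p = 0.626), and it was 0.02 without cow 4. The dimmer probe gave -0.22 ± 0.17 (SE; adjusted p = 0.451). Without cows 4 and 9 the changes of the 9 genes lay between -0.29 (POU2AF1) and 0.18 (PIM2), with adjusted p between 0.297 and 0.890.

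**Figure D2:**
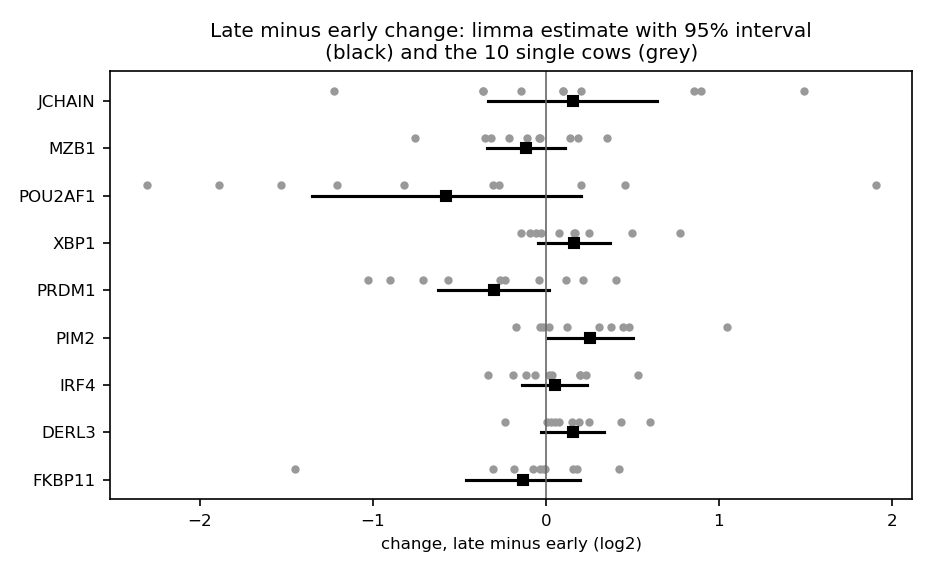
Late minus early change (log2) of each of the 9 plasma cell genes: black squares are the limma estimates with their 95% intervals (bars), and grey points are the 10 cows. The interval of PIM2 begins just above 0, at 0.01, and those of the other 8 genes include 0; the cow values of JCHAIN and POU2AF1 spread widely.

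The next question was whether a cow that was high late had also been high early. For JCHAIN the late and early levels correlated over the 10 cows at r = 0.911 (Spearman's rho = 0.891). The two-sided permutation p was 0.00033 for r and 0.00109 for rho, and after adjustment over the 19214 genes with complete values they were 0.0571 and 0.143, so that the relation missed the threshold. Only 0.692% of genes had a higher r, and the median gene had 0.227. Without cows 5 and 9, the farthest from the median, r was 0.757, and it was 0.849 after the mean of each slide had been subtracted, a step added after the data were seen.

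No member passed this test, which called 0.333% of all genes, and 0.0208% after the slide means had been subtracted. POU2AF1 gave r = 0.787 (permutation p = 0.0216, adjusted p = 0.289) but rho = 0.224, and r was -0.451 without cows 3 and 4, so that its relation rests on those cows. XBP1 gave 0.668 (adjusted p = 0.323), DERL3 0.639 (adjusted p = 0.371) and PIM2 0.612 (adjusted p = 0.398), and in these 3 genes r was between 0.652 and 0.789 without the 2 farthest cows. The other values were 0.318 for MZB1, 0.258 for IRF4, 0.161 for PRDM1 and -0.361 for FKBP11. With quantile normalization XBP1 alone among the 9 passed, at r = 0.840.

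**Figure D3:**
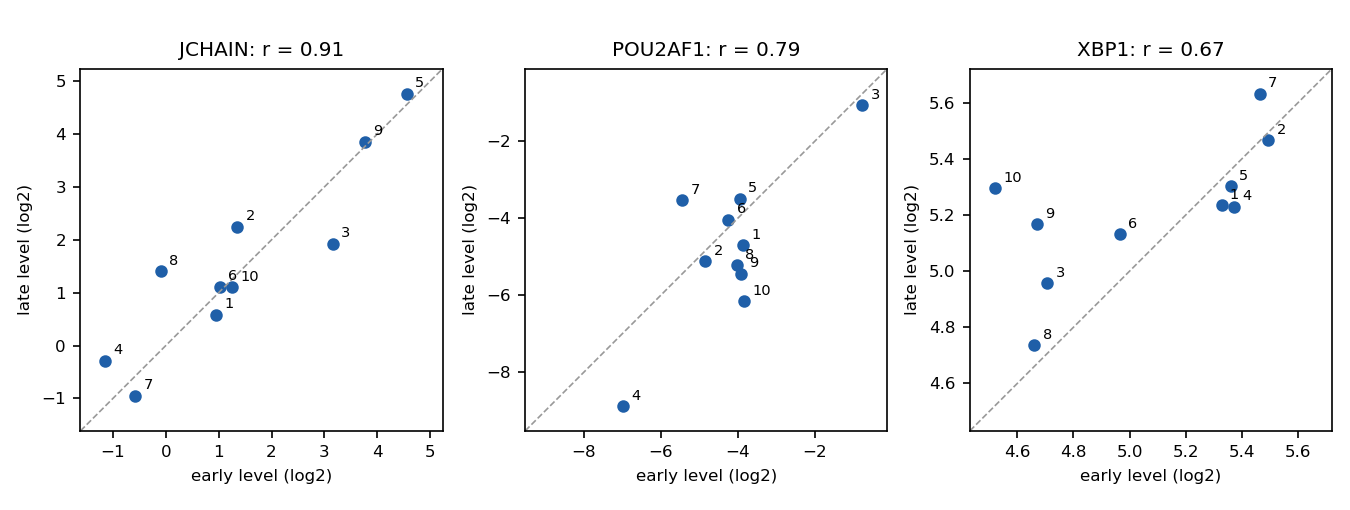
Late level against early level (both log2) of JCHAIN, POU2AF1 and XBP1, with 1 point per cow, its number beside it, and a dashed line of equal levels. The JCHAIN points follow the line from cows 4 and 7 at the low end to cow 5 at the high end (r = 0.911), while the value of POU2AF1 rests on cow 3 at the top and cow 4 at the bottom.

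Within the periods, levels were also set against the day of sampling. No gene of the whole table was called for a slope in either period by limma (1.37% of genes late and 5.65% early had an unadjusted p under 0.05). Among the plasma cell genes the late slope of POU2AF1 was -0.47 ± 0.18 per 10 days (SE; unadjusted p = 0.0237) and that of IRF4 was 0.06 ± 0.02 (SE; unadjusted p = 0.0466). Without cow 4, whose late sample was the last in time (day 436) and not well above background for POU2AF1, the slope of POU2AF1 was -0.24 ± 0.20 (SE; unadjusted p = 0.256). That of IRF4 was between 0.05 and 0.06 without 1 cow. Neither passed after adjustment over all genes, and no early slope of the 9 had an unadjusted p under 0.05 (lowest adjusted p = 0.910, XBP1).

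How the genes varied together was described by Pearson's r over the 20 arrays after subtracting each period's mean. These points share cows and slides, and the values are given without a test. JCHAIN, MZB1 and POU2AF1 were positively related, at 0.610 (JCHAIN with MZB1), 0.477 (MZB1 with POU2AF1) and 0.426 (JCHAIN with POU2AF1). Without cows 5 and 9 these were 0.388, 0.521 and 0.597. The other 33 pairs had a median of -0.08 and ran from -0.602 (PRDM1 with DERL3) to 0.410 (PRDM1 with FKBP11). Of all 36 pairs, 4 lay above 0.4 and 3 below -0.4.

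**Figure D4:**
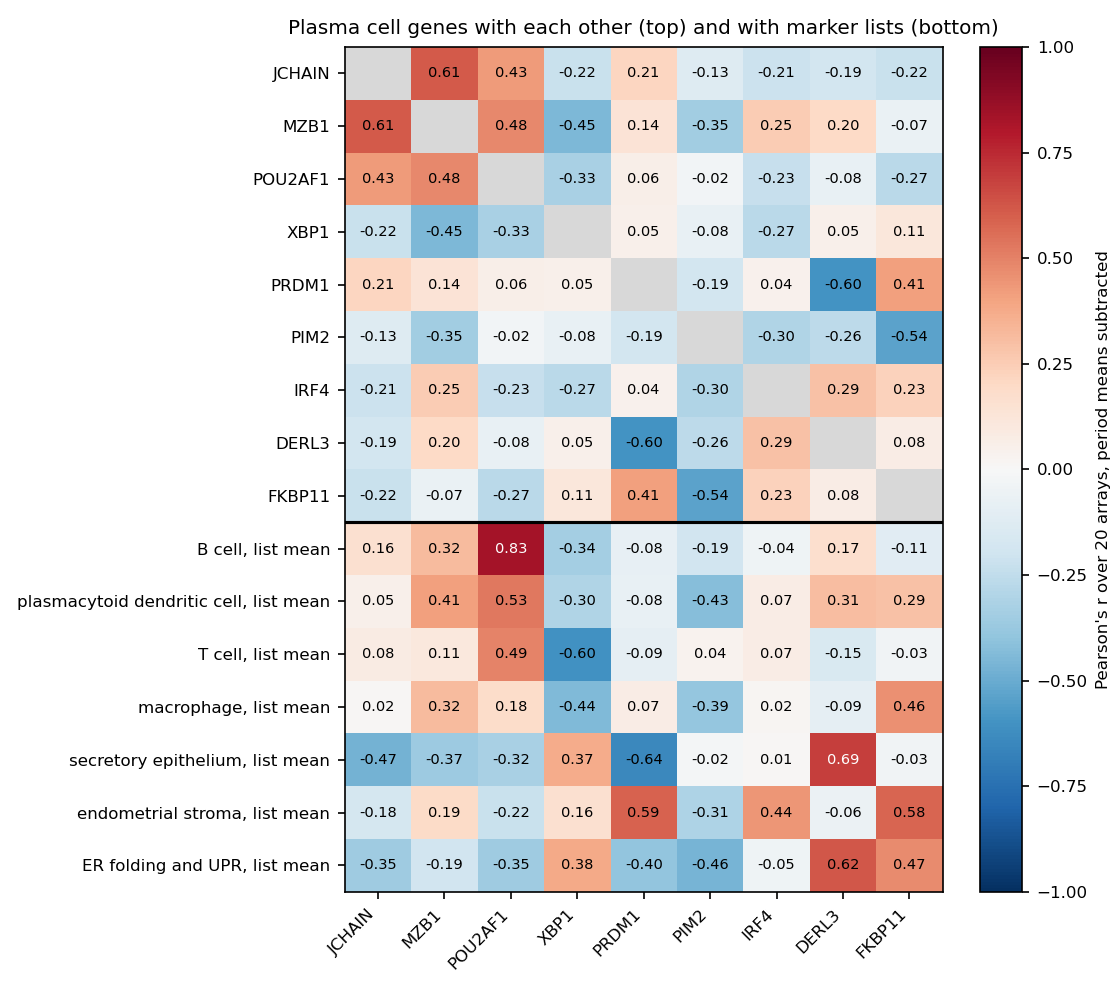
Pearson's r over 20 arrays, with period means subtracted, between the plasma cell genes (upper block) and between each gene and the mean of a marker list (lower block); red is positive, blue negative and grey the gene with itself. JCHAIN, MZB1 and POU2AF1 form a positive corner, POU2AF1 stands at 0.83 with the B cell list, and DERL3 at 0.69 with the secretory epithelium list.

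Of 19213 genes compared, the nearest to JCHAIN was an unnamed transcript (r = 0.857, and 0.853 without both arrays of cow 5). The files describe it by likeness to human TNFRSF17, the receptor for B cell survival factors on plasma cells. It ranged from -3.72 to -1.79 (median -2.63) late and from -3.72 to -1.74 (median -2.68) early, with cow 5 highest late and cow 9 highest early. Next came an unannotated cDNA clone (0.819), the gene carrying the array name IGLL1 (0.765) and an immunoglobulin lambda light chain transcript (0.748). Without both arrays of cow 5 these fell to 0.691, 0.672 and 0.685.

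MZB1 was nearest to the same lambda transcript (0.870), to IGLL1 (0.821) and to a light chain variable region transcript (0.790). For POU2AF1 the nearest named genes were TNFRSF13C, a B cell receptor for a survival factor (0.888), MS4A1, the CD20 antigen of B cells (0.864), and BANK1, a B cell scaffold protein (0.853). XBP1 had weaker neighbours, of which the only one with a gene symbol was BICC1 (0.725).

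The same measure was extended to further genes after the data were seen. Of the 4 nearest to each, those with a gene symbol are named. They were NRIP3 (0.963), NUMBL (0.959) and MORC4 (0.933) for PRDM1, and WNT2 (0.961), GALNT4 (0.960) and TUBB6 (0.958) for FKBP11. The 3 values of FKBP11 fell to between 0.794 and 0.801 without the early array of cow 4 and the late array of cow 6. For PIM2 they were FBXW9 (0.938), DNAI7 (0.934) and DNAAF11 (0.931), the last 2 being genes of motile cilia, and for IRF4 they were XKR4 (0.872), NEPN (0.865) and STRC (0.858). DERL3 was nearest to EMID1 (0.855), RAB1B (0.846), a GTPase of early secretory transport, and NHERF1 (0.835), a scaffold of epithelial membranes.

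Against the means of marker lists, POU2AF1 followed the B cell list (r = 0.832, 9 genes). DERL3 followed the secretory epithelium list (0.693, 10 genes) and the list of endoplasmic reticulum folding genes (0.625, 45 genes). PRDM1 ran against the epithelium list (-0.641) and with the stroma list (0.591, 8 genes). FKBP11 was at 0.582 with stroma, within a range from -0.525 (red cell list, 2 genes) to 0.787 (PIM, FKBP and DERL relatives, 4 genes). The high early level of cow 4 enters all these FKBP11 values. XBP1 ran from -0.604 (T cell list, 5 genes) to 0.381 (folding list). JCHAIN was at 0.138 with the plasma cell surface and fate list (20 genes), a mixed list that shares PAX5, BCL6 and SPIB with the B cell list. With that list POU2AF1 was at 0.623, MZB1 at 0.524, XBP1 at -0.406 and PIM2 at -0.442. PRDM1, IRF4, DERL3 and FKBP11 lay between 0.161 and 0.271. JCHAIN stood at 0.163 with the B cell list, -0.353 with the folding list and -0.368 with the list of antibody export, homing and survival factors (12 genes). With epithelium JCHAIN was at -0.473, and with the stroma, T cell, macrophage and plasmacytoid dendritic cell lists between -0.18 and 0.08.

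Antibody chains were examined beside these genes. Of 27 probes that the files describe as immunoglobulin chains, 16 passed the filter and none was called, against 1.13% of all probes. Their median change was -0.38, against -0.02 over all probes. Several of them carry the same name, among them the 4 of IGLL1, so that this median is not one of separate chains. The chains described do not include the heavy chain of IgA. The brightest IGLL1 probe had a lowest, median and highest level of 2.62, 3.59 and 5.14 late, against 2.77, 3.83 and 5.14 early. Its change was -0.25 ± 0.24 (SE; adjusted p = 0.532), and its late and early ranges were nearly the same. The 4 IGLL1 probes correlated with JCHAIN at between 0.742 and 0.843. Other chains did not follow JCHAIN as closely, and of the probes past the filter 8 lay above 0.5. The probe described as IGK protein, above background on 10 late and 10 early arrays, was at 0.122. A heavy chain variable region probe was at 0.105 and the IgD heavy chain probe at -0.057.

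The constant region of IgM followed another order of cows. Its brighter probe ranged from -3.80 to 0.84 (median -2.91) late and from -4.35 to 2.26 (median -2.06) early. Cow 3 was highest late and cow 9 early, whereas cow 5, the highest of all in JCHAIN, lay at -2.96 late and -3.14 early. The change was -0.79 ± 0.35 (SE; adjusted p = 0.198), and r was 0.353 with JCHAIN and 0.607 with POU2AF1. Its dimmer probe gave -1.06 ± 0.40 (SE; limma adjusted p = 0.147), lower late in 7 of 10 cows. The r of that probe was 0.304 with JCHAIN and 0.661 with POU2AF1. The IgG1 heavy chain probe changed by -0.41 ± 0.24 (SE; adjusted p = 0.319) and had r = 0.029 with JCHAIN. IGHE was above background on 5 late and 3 early arrays, at 0.50 ± 0.18 (SE; adjusted p = 0.132).

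**Figure D5:**
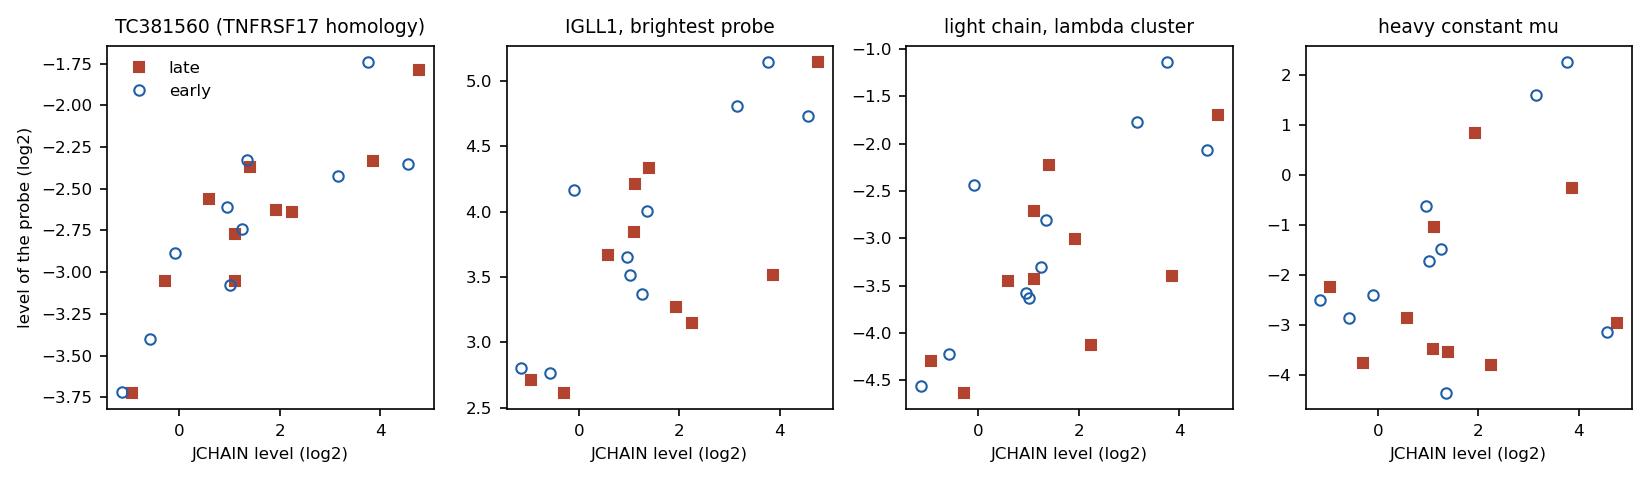
Level (log2) of 4 probes against the level of JCHAIN (log2) on 20 arrays, with filled squares for late and open circles for early biopsies. The transcript with TNFRSF17 homology (r = 0.857), IGLL1 (0.765) and the lambda transcript (0.748) climb with JCHAIN. Without both arrays of cow 5 these values are 0.853, 0.672 and 0.685. The IgM constant region (0.353) is at -2.96 late and -3.14 early in the cow with the highest JCHAIN, near the late median and below the early one.

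Of 20 tested genes of the plasma cell surface and fate list, 0 were called, against 1.32% of all genes. Of the 20, 4 were higher and 16 lower late. Their median change was -0.10, beside 0.02 over all genes. This list is mixed: PAX5, BCL6 and SPIB are also in the B cell list, and IRF8 and SPIB in the plasmacytoid dendritic cell list. Its counts are therefore not those of plasma cell markers alone. The smallest p values were those of CD38, an ectoenzyme of plasma cells and activated lymphocytes, at -0.52 ± 0.14 (SE; adjusted p = 0.0774, lower in 9 of 10 cows), IRF8 at -0.94 ± 0.27 (SE; adjusted p = 0.093) and CXCR4 at -0.33 ± 0.10 (SE; adjusted p = 0.112). CXCR4, a homing receptor of plasma cells among other cells, had r = 0.625 with JCHAIN. The syndecan SDC1, a surface marker of plasma cells that epithelium also makes, was at -0.05 ± 0.14 (SE) and had r = -0.404 with JCHAIN. TNFRSF13B was at 0.03 ± 0.10 and CD27 at -0.01 ± 0.15 (SE). No probe was matched by name to the list genes TNFRSF17 and CCR10, which were not tested under those names.

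The list of antibody export, homing and survival factors had 12 tested genes, 0 called (1.32% over all genes), 6 higher and 6 lower, with a median of 0.01. CCL28, an epithelial chemokine that draws IgA plasma cells, was at -2.03 ± 0.76 late and -3.12 ± 1.07 early (SD), a change of 1.09 ± 0.47 (SE; adjusted p = 0.198; higher in 7 of 10 cows). PIGR, the polymeric immunoglobulin receptor, was at 0.51 ± 0.70 (SE; adjusted p = 0.684) and had r = -0.376 with JCHAIN. The survival factors TNFSF13B and TNFSF13 were at 0.45 ± 0.25 and -0.04 ± 0.14, and TGFB1, which directs switching to IgA, at -0.25 ± 0.15 (SE). None of these passed the test.

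In the list of endoplasmic reticulum folding and unfolded protein response genes, 0 of 45 were called, against 1.32% of all genes. Of the 45, 32 were higher and 13 lower late, and the median was 0.06. The smallest p values belonged to TXNDC11 (0.32 ± 0.08, adjusted p = 0.0654), SEL1L (-0.48 ± 0.12, adjusted p = 0.066, lower in 10 of 10 cows) and SEC61G (0.33 ± 0.11, SE, adjusted p = 0.124). The chaperones HSPA5 and HSP90B1 were at 0.00 ± 0.11 and 0.00 ± 0.13, PDIA4 at -0.23 ± 0.15 and DNAJB9, a target of XBP1, at 0.39 ± 0.17 (SE, adjusted p = 0.209). Of 4 tested relatives of PIM2, FKBP11 and DERL3, PIM1 had the smallest p, at -0.74 ± 0.31 (SE; adjusted p = 0.190), followed by FKBP10 at -0.38 ± 0.20 and FKBP7 at -0.15 ± 0.12 (SE), and none was called.

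Markers of other cells moved between the periods as follows. Over all genes 1.32% were called, 0.541% higher and 0.778% lower late. B cell markers were called in 0 of 9 genes and all 9 were lower late, with a median of -0.13; mean levels ran from -4.68 to -1.73 late and from -4.29 to -1.94 early. CXCR5, at -0.71 ± 0.23 (adjusted p = 0.121), BLK, at -0.50 ± 0.30, and PAX5, at -0.10 ± 0.09 (SE), had the smallest p, and MS4A1, CD79A and CD79B were at -0.23, -0.08 and -0.13. Macrophage markers were called lower late in 4 of 6 genes (CD68, VSIG4, MSR1 and TYROBP), with a median of -0.96 and mean levels from -1.59 to -0.23 late and from -0.91 to 0.99 early.

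T cell markers were called in 0 of 5 genes (median -0.47; CD2 at -0.67, CD3E at -0.47 and CD3D at 0.23). Secretory epithelium markers were called in 0 of 10 genes, 9 of them higher late (median 0.33; KRT18 at 0.42, SPDEF at 0.76 and AGR2 at 0.98). Stroma markers were all 8 lower late (median -0.26), of which HAND2 was called at -0.87, and PDGFRA and VIM were at -0.45 and -0.31. In the plasmacytoid dendritic cell list TLR7 was called at -1.12, and it was above background on 3 late and 8 early arrays; IRF8 at -0.94 and TLR9 at 0.26 were not called. Of the red cell genes HBA was at 0.48 and HBB at 0.34, neither called. The calls of HAND2 and TLR7 were weak: leaving out 1 cow ended that of HAND2 except for cow 9, and that of TLR7 except for cow 10. Without 1 cow the macrophage list kept between 2 and 4 calls, the fewest without cow 1, and it had 0 with slide as a fixed block. The part of these cell types in the values of the plasma cell genes was not tested.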

How the data were processed

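Per the labels' protocols, total RNA of 20 biopsies was labelled with Cy3 and hybridised to 1-colour Agilent arrays, 1 per sample. The deposited intensity values are, per the file headers, processed signals that Agilent Feature Extraction 10.5.1.1 had background-subtracted and detrended. The deposited log2 table of the series is the same signal relative to each array's 75th percentile, centred per probe: against the scanner values its columns correlated at 0.99995 or more, with column medians between -0.153 and 0.0509. It served as an alternative.

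Control and outlier-flagged spots were left out, spots of a probe were averaged (43653 probes), and log2 processed signals were set relative to the array's 75th percentile. Probes entered if well above background on at least 8 of 20 arrays, and the probe of highest mean stood for its gene. Names came from the array design and a RefSeq table of another assembly, used for names only. Late was set against early in limma 3.58.1 (R 4.3.3) with cow as a fixed block, two-sided, with Benjamini-Hochberg adjustment over all genes. Late and early levels were correlated over cows with 100000 permutations. The plan was to adjust these over the members. They were adjusted over all genes instead.

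The members and the marker lists were chosen with earlier results of these data known. Named genes are all members with every probe, each list's members past the threshold or its 3 of smallest p, and preset plasma cell, B cell and folding genes. Pairing follows the titles and animal numbers; for late samples the source name gives a cow number unlike that of the title, and no label settles this. Deviations from the period means correlated between -0.11 and 0.76 within cows (median 0.42, above 0.1 in 8 of 10), against a median of -0.03 between cows. The number of arrays limits the precision. Nothing in the labels marks technical repeats.

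The paired limma fit was also checked on simulated data with known changes in 50 genes of each size. It recovered 50% of changes of 0.5 on the log2 scale and 86% of changes of 1, with 9 false calls among 19214 genes. Changes smaller than 0.5 were not simulated.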

Additional observations from a re-analysis of the deposited data

Results flagged for a closer look

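In 18 groups of 10 values (the 9 genes in each period), 4 extreme samples stood farther from their nearest neighbour than Dixon's critical share of the range, 0.466; chance marks about 1 group in 20. The late FKBP11 level of cow 6, at 1.69, lay 0.28 above the next (0.560 of the range). The early FKBP11 level of cow 4, at 2.64, lay 0.94 above the next (0.642 of the range). In cow 9 the early PRDM1 level was 4.20, or 0.53 above the next (0.491 of the range). In cow 3 the early POU2AF1 level was -0.759, or 3.08 above the next (0.494 of the range), and the late level of that cow was also the highest, at -1.06.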

How the results depend on the processing

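None of the 9 plasma cell genes was called under any alternative, with a lowest adjusted p of 0.110, and of 222 values for single genes 213 kept their direction. The count over all genes, 256 with the replicate block, was 119 with no replicate block, 724 with the replicate block as a random effect, 114 without the filter, 35 with slide as a random block, 35 to 159 without 1 cow, 0 with slide as a fixed block (366 at an unadjusted p under 0.05) and 0 on the slide that held both periods (1722 unadjusted, limma). The share of higher calls was 41.0%, against 53.3% with normexp, 51.7% with quantile normalization and 50.6% with scaling to the median of detected probes. Further shares were 20% with slide as a random block, 31.2% by probe and 22.9% to 64.2% without 1 cow (cows 10 and 7). Slide and period are nearly confounded, and no cow had both arrays on 1 slide. With slide as a fixed block PRDM1 turned to 0.462, PIM2 to -1.07 ± 0.398 (SE) and FKBP11 to 0.837. On the slide with both periods, JCHAIN turned to -1.09 and IRF4 to -0.207, and the median of the 9 genes to -0.263. That fit had no cow block and set late arrays of cows 1 and 2 against early arrays of cows 9 and 10. Differences between cows and between periods cannot be told apart in it. XBP1 was at -0.0418 by its dimmest probe. With normexp background correction POU2AF1 kept its sign but was at -0.208 ± 0.191, against -0.577 ± 0.355 (SE) in the main fit. Without 1 cow, FKBP11 ran from -0.192 to 0.0159 (without cow 4) and IRF4 from -0.00271 (without cow 5) to 0.0936. FKBP11 was at 0.0561 without cows 4 and 9. Early slopes called were 0 to 1 without 1 cow. Of the late and early correlations, 1 gene (XBP1) passed with quantile normalization, IRF4 was at -0.00889 with normexp, POU2AF1 at -0.451 without cows 3 and 4, and PRDM1 at -0.366 and -0.379 by its dimmer probes. The cause of these shifts was not tested. The number of cows limits the precision of changes this small.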
